A study of Rattus norvegicus with 415 samples.

Results

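The 4 genes described here are RT1-Da (ENSRNOG00000032844), RT1-Ba (ENSRNOG00000000451), RT1-Bb (ENSRNOG00000032708) and Cd74 (ENSRNOG00000018735). They were chosen by identifier as genes of the major histocompatibility complex (MHC) class II system, out of 18358 genes in the table, and all 4 were found. The symbols came with that choice, since the table itself holds identifiers and no names. The rats were 17 weeks old and outbred, so that animals differ in genotype, and RNA was sequenced from their frozen adipose tissue. All samples formed 1 group with no treatment, and the labels name neither the strain nor the fat depot. Each title carries a number, which is shared by some samples, and a suffix, both without a stated meaning.

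MHC class II molecules present peptides from taken-up material to CD4+ T cells. Each is a pair of an alpha and a beta chain, and in the rat the region that encodes them is called RT1. RT1-Da encodes the alpha chain of the D molecule, the relative of human HLA-DR, while RT1-Ba and RT1-Bb encode the alpha and the beta chain of the B molecule, the relative of HLA-DQ. Cd74 encodes the invariant chain, which holds the new dimers, keeps their groove closed and guides them to the compartment where peptides are loaded. In fat these genes are known above all from macrophages, dendritic cells and B cells, and adipocytes can also express them. Class II genes are switched on together by the coactivator CIITA, which works through conserved promoter boxes. The coding sequences of some of them, though not of all, are among the most variable in a mammalian population. How well reads from different alleles were aligned was not tested.

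The promoters are shown because these 4 genes moved together, as described below, and because they are known to share the X and Y boxes. They are RefSeq sequences of the GRCr8 assembly, which need not be the build behind the table. All 4 genes were found in a table of 33469 promoters by symbol. Each run reads 5′ to 3′ on the gene's strand and stops before the first base of the gene record. Capitals mark ATTGG, the core of the Y box, or its complement CCAAT, and ACNGATG, a part of the X box. Both motifs were searched on both strands in 300 bases per gene, from 250 before the start site to 50 after it. RT1-Da is on the plus strand at chr20:4515165-4515392, RT1-Ba on the plus strand at chr20:4576807-4577056, RT1-Bb on the minus strand at chr20:4604119-4604368, and Cd74 on the plus strand at chr18:56526956-56527070.
RT1-Da: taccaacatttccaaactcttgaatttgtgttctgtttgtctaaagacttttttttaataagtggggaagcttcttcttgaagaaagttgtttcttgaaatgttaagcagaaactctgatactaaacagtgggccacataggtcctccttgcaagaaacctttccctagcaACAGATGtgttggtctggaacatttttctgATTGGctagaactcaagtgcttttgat
RT1-Ba: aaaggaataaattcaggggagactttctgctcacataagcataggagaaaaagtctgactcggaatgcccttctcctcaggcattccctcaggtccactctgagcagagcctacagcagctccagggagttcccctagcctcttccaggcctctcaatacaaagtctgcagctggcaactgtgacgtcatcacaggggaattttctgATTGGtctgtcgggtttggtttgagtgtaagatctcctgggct
RT1-Bb: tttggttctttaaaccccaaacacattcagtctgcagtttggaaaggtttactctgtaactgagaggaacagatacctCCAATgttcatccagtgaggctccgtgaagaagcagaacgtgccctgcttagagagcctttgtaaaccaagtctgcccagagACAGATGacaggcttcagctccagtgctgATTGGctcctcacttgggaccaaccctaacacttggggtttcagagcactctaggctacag
Cd74: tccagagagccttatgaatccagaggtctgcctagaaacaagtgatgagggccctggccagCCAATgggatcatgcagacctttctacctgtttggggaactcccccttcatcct
In RT1-Da, ACAGATG began 79 bases before the start site and ATTGG began 49 bases before it. RT1-Bb had the same order, with ACAGATG at 90 and ATTGG at 61 bases before the start site, and it held a CCAAT further out. RT1-Ba held ATTGG at 43 bases and no match to ACNGATG. Cd74 held CCAAT in the far part of its window and no match to ACNGATG in the window. Over all promoters of this length, 37.5% held ATTGG on either strand, 10.2% held ACNGATG and 3.87% held both, so that the first motif alone is common. The 3 RT1 genes lie close together on chromosome 20. In the order RT1-Da, RT1-Db2, Arrb2-ps, RT1-Db1, RT1-Ba and RT1-Bb, the last pair are direct neighbours, and Cd74 is on another chromosome.

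Values are FPKM, here reads per length of the gene and per size factor of the sample. That factor is the median, over genes, of the ratio of a sample's reads to their mean over samples. It is not the total of reads: the sample with fewest reads had a factor of 0.448, that with most 1.454. The reads per sample recovered from the values ran from 2139163 to 6248214 with a median of 4602134, and 12 samples had fewer than 3500000. Modes, depth slopes and trends are also given without these shallow samples. Possible batches were taken as 3 blocks of title numbers separated by gaps above 500, with 39 samples in block 1, 55.9% of all samples in block 2 and 34.7% in block 3. The table does not pair identifiers with names, so markers of adipocytes and leukocytes, and other genes of the class II pathway, were not analysed here. In bulk tissue, fewer cells of a type and less RNA per cell cannot be told apart.

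All 4 genes were well expressed in every sample, and their order was the same throughout. Cd74 had 94.4 FPKM in the lowest sample, 144.3 in the median and 220.8 in the highest, a median that placed it 94th among all genes of the table. RT1-Ba had 40.03, 73.6 and 154.2 FPKM in the lowest, median and highest sample. RT1-Da had 31.5, 49.8 and 96.2 FPKM. RT1-Bb was lowest, with 14.8, 31.5 and 74.8 FPKM. The ranges of neighbouring genes overlapped between samples, but within a sample they did not cross: Cd74 lay above RT1-Ba, RT1-Ba above RT1-Da and RT1-Da above RT1-Bb in every sample. The invariant chain was a median of 1.93-fold above RT1-Ba (lowest 1.17, highest 2.78), 2.85-fold above RT1-Da (1.85 to 3.48) and 4.45-fold above RT1-Bb (2.88 to 7.77). Between both chains of the B molecule, the FPKM of the alpha chain was 2.31-fold that of the beta chain (1.83 to 3.34). Behind these levels the median counts per sample were 919 for Cd74, 462 for RT1-Ba, 572 for RT1-Da and 587 for RT1-Bb. The gene lengths in the divisor were 1391, 1361, 2502 and 4048 bp in that order. By median counts the RT1 genes stood in the reverse order, so their order and folds in FPKM rest on these lengths.

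**Figure D1:**
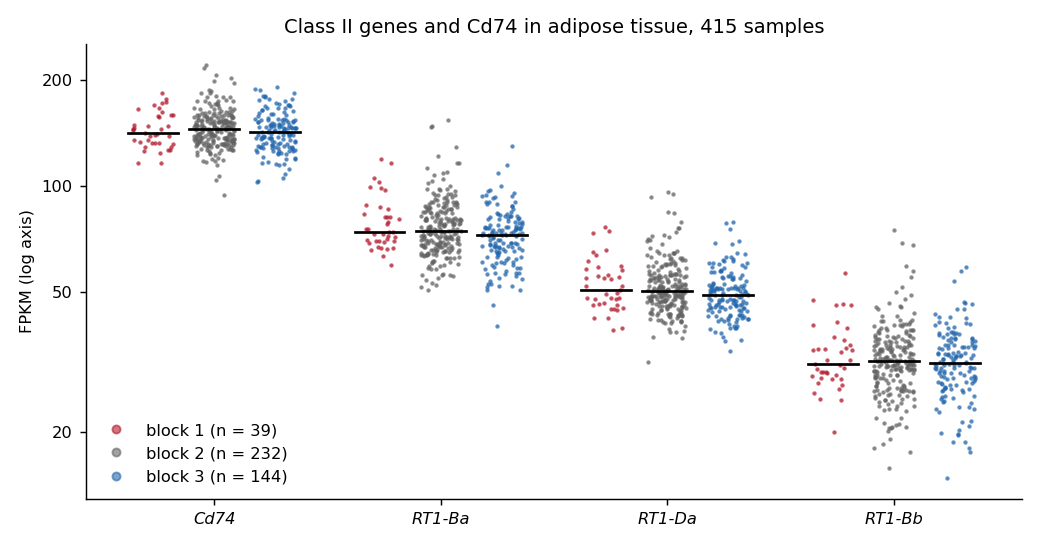
FPKM on a log axis for Cd74, RT1-Ba, RT1-Da and RT1-Bb, with 1 point per sample, coloured by block of title numbers, and black lines at block medians. The order of the genes is the same in each block, and the block medians of a gene lie close together, for example 141.03, 145.1 and 141.9 FPKM for Cd74.

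Spread between samples was ordinary for this table, smallest in Cd74 and largest in RT1-Bb. The mean was 145.3 ± 18.2 FPKM (SD over all samples) for Cd74, 75.8 ± 15.02 for RT1-Ba, 51.5 ± 9.25 for RT1-Da and 32.4 ± 7.82 for RT1-Bb. The coefficients of variation were 12.5%, 19.8%, 17.9% and 24.1%. On the log2(FPKM + 1) scale the SDs were 0.18, 0.26, 0.24 and 0.32, against a median of 0.24 over the 16131 genes kept by a filter on low values (more than 1 FPKM in 20% of the samples or more), which all 4 genes passed. The variance between samples was 14.2 times the counting variance for Cd74 and 34.2 times for RT1-Bb, so counting error was a small part of it.

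The same samples tended to be high or low for all 4 genes. Sample 61645 (suffix 3) was the highest of all for RT1-Da (96.2 FPKM), RT1-Bb (74.8 FPKM) and Cd74 (220.8 FPKM), and it was the second highest for RT1-Ba at 148.3 FPKM. Sample 62692 (suffix 3) was the highest for RT1-Ba, at 154.2 FPKM. At the other end, sample 62335 (suffix 3) was lowest for RT1-Da (31.5 FPKM) and Cd74 (94.4 FPKM), and sample 64199 (suffix 4) was lowest for RT1-Ba (40.03 FPKM) and RT1-Bb (14.8 FPKM). Of the 20 highest samples of each gene, 10 were shared by all 4 genes. Of the 20 lowest, 4 were shared by all. RT1-Da and Cd74 had 14 of their 20 lowest samples in common, but RT1-Bb and Cd74 only 5.

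Across samples the 4 genes rose and fell together. Pearson's r on the log2(FPKM + 1) scale was 0.897 between RT1-Da and RT1-Ba (Spearman's rho 0.863), although they belong to different class II molecules. It was 0.862 between RT1-Ba and RT1-Bb, the chains of 1 molecule (rho 0.811). With Cd74, r was 0.884 for RT1-Da (rho 0.872), 0.801 for RT1-Ba (rho 0.764) and 0.731 for RT1-Bb (rho 0.699). All of these coefficients had a permutation p of 1e-05 in a two-sided test, the smallest that 100000 permutations can give, and an adjusted p of 1e-05 over the 6 pairs tested. No pooled value is given for the remaining pair, RT1-Da and RT1-Bb, because its samples formed separate bands, described below. Without the 2 samples farthest from the median of the first gene, the 5 values were 0.889, 0.852, 0.878, 0.790 and 0.716 in the order given.

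These relations held within each block of title numbers. RT1-Da and RT1-Ba had r = 0.911, 0.899 and 0.887 in blocks 1, 2 and 3, and RT1-Da and Cd74 had 0.923, 0.876 and 0.898. RT1-Ba and RT1-Bb had 0.852, 0.860 and 0.883, RT1-Ba and Cd74 had 0.828, 0.797 and 0.812, and RT1-Bb and Cd74 had 0.796, 0.742 and 0.704. Each of these had a permutation p of 1e-05. After removal of a smooth trend along the title numbers and of log2 reads, the 5 values for all samples ranged from 0.753 (RT1-Bb and Cd74) to 0.882 (RT1-Da and RT1-Ba).

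Measured against the whole table, the members mostly stood near the top of each other's lists. Among all other genes kept, RT1-Ba ranked 1st by r with RT1-Da, and Cd74 ranked 2nd, but RT1-Bb only 12th. By r with RT1-Bb, RT1-Ba again ranked 1st, RT1-Da 2nd and Cd74 4th. The ranks between RT1-Da and RT1-Bb rest on r pooled over the bands described below. By r with Cd74, RT1-Da ranked 1st, RT1-Ba 2nd and RT1-Bb 4th. The other 16127 genes had a median absolute r of 0.164 with RT1-Da and 0.118 with Cd74, and 1.53% of them had an r above 0.5 with Cd74. An r above 0.5 with each of the 4 members was found in 170 genes. These coefficients share the libraries and their depth and are given as a description.

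The gene most like all 4 members is known here by its identifier only. ENSRNOG00000033215, 3193 bp long, had 20.8 FPKM in the lowest sample, 33.99 in the median and 86.2 in the highest. Over all samples its r was 0.935 with RT1-Ba, 0.868 with RT1-Da, 0.772 with Cd74 and 0.770 with RT1-Bb, so that it followed RT1-Ba more closely than any member did. ENSRNOG00000010319 came next for RT1-Da (r = 0.839) and RT1-Ba (r = 0.787). The genes that ran most against the members did so less closely. ENSRNOG00000015896 had r = -0.651 with RT1-Da and -0.598 with RT1-Ba, and ENSRNOG00000011253 had r = -0.502 with Cd74.

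In the deposited scaling none of the 4 genes alone fell into separate modes. Normal mixtures of up to 4 components were compared by the Bayesian information criterion (BIC), and modes were called separate where neighbouring means lay more than 3 SDs apart. RT1-Ba, RT1-Bb and Cd74 were described by 1 component. RT1-Da took 2, with 26 samples between 6.07 and 6.60 on the log2 scale above the others between 5.02 and 6.06, but their means were 2.73 SDs apart. The samples of the upper component are the high end of a continuous range. This count depended on the setting: quantile normalization gave separate components for RT1-Da, RT1-Ba and Cd74, and leaving out the 12 shallow samples did so for RT1-Da and RT1-Ba.

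A split appeared when one class II gene was set against another within a sample, which takes out shared movement. Among the 6 pairs it was widest between RT1-Da and RT1-Bb. This comparison was chosen after the data were seen, and it is described without a test. The difference RT1-Da minus RT1-Bb on the log2 scale formed a large component with a mean of 0.60 and a smaller one with a mean of 1.09, 4.53 SDs apart, with a BIC better by 195.6 than that of 1 component. The smaller component held 58 of the samples (13.98%). There RT1-Da exceeded RT1-Bb by a median of 2.23-fold (lowest 1.88, highest 2.57), against 1.53-fold (1.28 to 1.88) in the other samples (86.02%).

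Of this pair, the bands differed in the level of RT1-Bb and hardly in that of RT1-Da. The median of RT1-Ba was lower too in a closely overlapping set of samples, given below. RT1-Bb had 14.8 FPKM in the lowest, 22.96 in the median and 38.4 in the highest of the 58 samples, against 22.99, 32.5 and 74.8 FPKM in the others. RT1-Da had 31.5, 50.1 and 76.1 FPKM in the 58 samples, against 36.2, 49.8 and 96.2 FPKM in the others. So the RT1-Da ranges lay over each other, while the RT1-Bb values of the 58 samples were shifted down at any given RT1-Da. The ranges of RT1-Bb still overlapped, and no empty interval divided the bands: the largest difference in the lower band was 0.88 and the smallest in the upper band was 0.89, and 18 samples had a membership probability under 90%. Within the bands, r between RT1-Da and RT1-Bb was 0.917 in the larger band (rho 0.887) and 0.927 in the 58 (rho 0.934). The bands were drawn on the difference between these same genes, so the coefficients are given without a test.

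**Figure D2:**
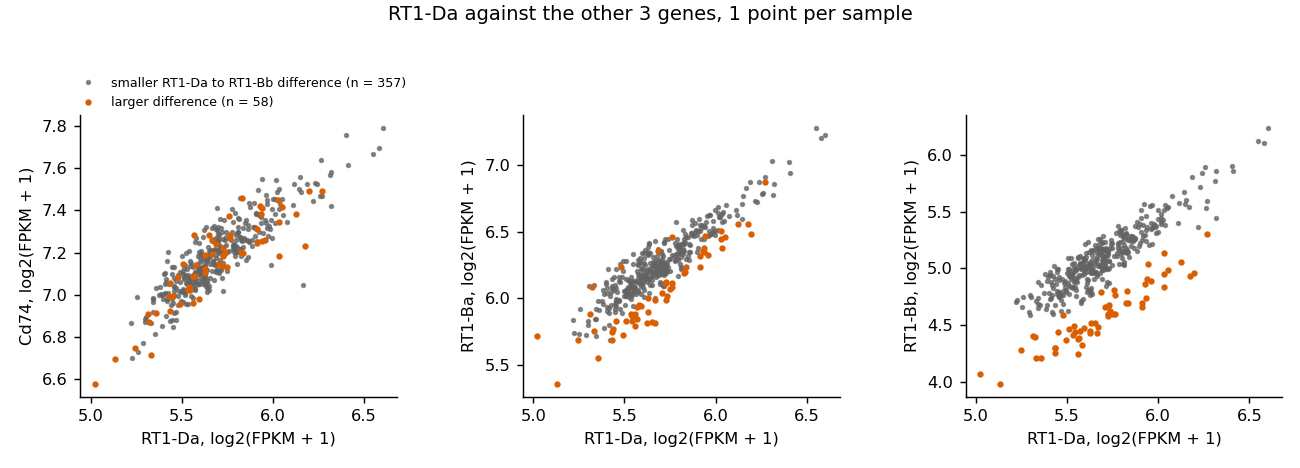
RT1-Da on the horizontal axis against Cd74, RT1-Ba and RT1-Bb on the vertical axes, all as log2(FPKM + 1), with 1 point per sample; orange points are the 58 samples with the larger RT1-Da to RT1-Bb difference and grey points all others. The orange points form a parallel band below the grey ones against RT1-Bb, lie towards the lower edge against RT1-Ba, and are mixed with the grey ones against Cd74.

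The band of low RT1-Bb also appeared against the other 2 genes, less sharply. RT1-Bb relative to Cd74 had a lower component of 53 samples, 2.94 SDs from the rest, and RT1-Ba relative to RT1-Bb an upper component of 83 samples, 2.97 SDs from the rest, both just short of the limit of 3. Of the 58 samples, 52 (89.7%) were among the 53, of which they made 98.1%. Of the 58, 54 (93.1%) were among the 83, of which they made 65.1%. In all, 48 samples stood in the low RT1-Bb component of all 3 comparisons. These comparisons share the RT1-Bb values, and the other genes in them move together, so the overlap is no independent support for the band. RT1-Da relative to RT1-Ba took 1 component, as did RT1-Ba relative to Cd74.

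RT1-Da relative to Cd74 gave a small separate component, which moved with depth. It held 13 samples, 3.36 SDs above the others, with a median of 3201606 reads per sample against 4609531. These samples were also higher in each gene. Their medians were 76.1 against 49.6 FPKM for RT1-Da, 112.6 against 73.2 for RT1-Ba, 45.6 against 31.4 for RT1-Bb and 175.9 against 143.3 for Cd74. Not all were shallow: sample 61645 (suffix 3), the highest for RT1-Da, was among them and had 4255907 reads. Without the samples under 3500000 reads, or with 1 sample per title number, 1 component was left. Same-number pairs stood in the same mode of this value in 95.2% of cases, against 93.9% after shuffling (one-sided permutation p = 0.349).

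The low RT1-Bb band was present in each larger block. It took 35 of the samples of block 2 (15.1%), 21 of block 3 (14.6%) and 2 of block 1 (5.13%). Fitted within block 2 alone the split was 4.24 SDs wide, and within block 3 it was 5.71 SDs wide. Block 1 alone was described by 1 component. Median depth was 4607378 reads in the 58 samples and 4596385 in the others, but 6 of the 12 shallow samples were among the 58. Without the shallow samples the split was 4.73 SDs wide with 51 samples in the upper component. Across the table, the difference RT1-Da minus RT1-Bb had an r below -0.5 with 6 of the 16127 other genes (lowest -0.576) and above 0.5 with 0 (highest 0.392). The median absolute r was 0.0877.

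**Figure D3:**
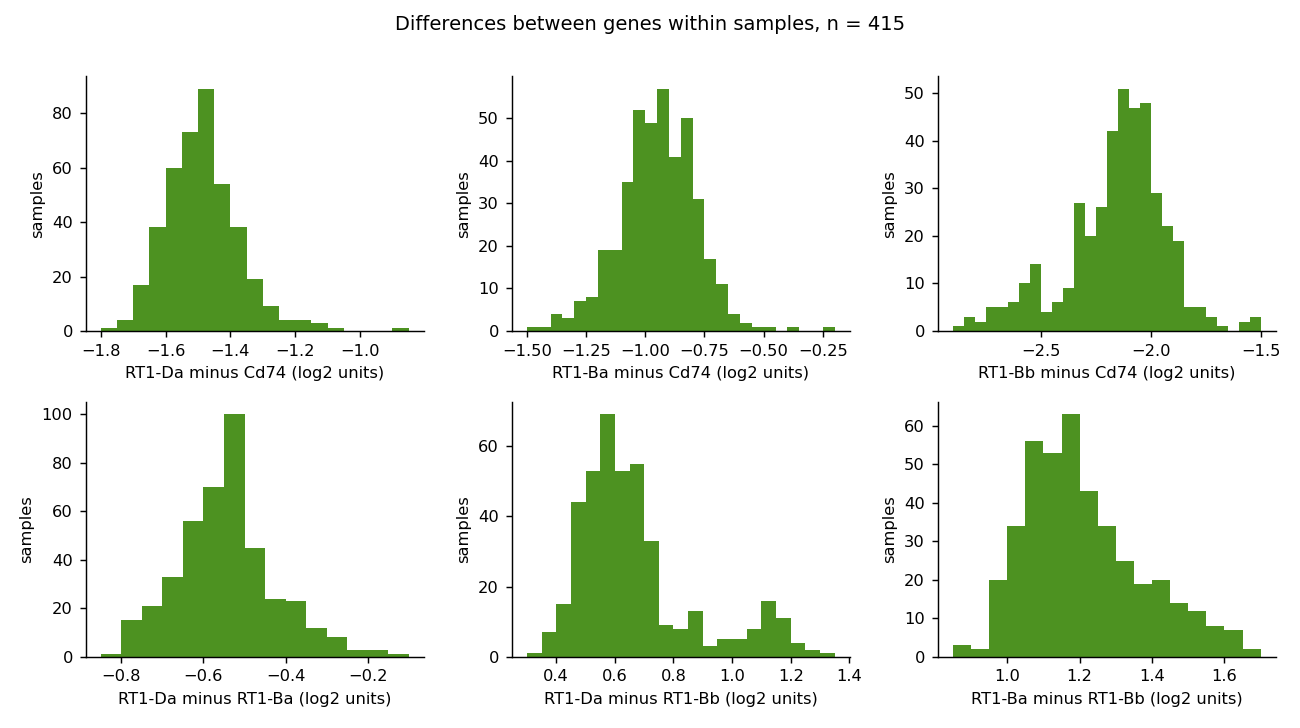
Histograms over all samples of the log2 difference between the genes of each pair. RT1-Da minus RT1-Bb has a main peak near 0.60 and a smaller one near 1.09; RT1-Bb minus Cd74 has a shoulder of 53 samples on its low side, and RT1-Da minus RT1-Ba and RT1-Ba minus Cd74 each have 1 peak.

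Resemblance within title numbers was examined because the study mapped gene expression to genetic loci and the number is the label that samples share. Of the title numbers, 81 stood on 2 samples and 8 on 3 samples, and resemblance was taken over all pairs within them. Resemblance is an intraclass correlation, which is 1 where the samples of a pair are identical and near 0 where they are unrelated. It was 0.307 for RT1-Bb (adjusted p = 0.00266), 0.280 for RT1-Da (adjusted p = 0.00397), 0.254 for Cd74 (adjusted p = 0.00508) and 0.245 for RT1-Ba (adjusted p = 0.00635). These are one-sided permutation tests with 100000 shuffles of the title numbers, adjusted over 7 values. Where only a permutation p is given for resemblance, as for other settings and within blocks, it is not adjusted. Across all genes kept the median was 0.228, and the members stood at the 66.2nd, 60.8th, 55.5th and 53.5th percentiles, so they stood a little above the median gene. After removal of a smooth trend along the title numbers and of log2 reads, resemblance was 0.243 for RT1-Bb (permutation p = 0.00595), 0.217 for Cd74 (p = 0.0118), 0.162 for RT1-Da (p = 0.047) and 0.0942 for RT1-Ba (p = 0.159). The RT1-Ba value was 0.149 after quantile normalization (permutation p = 0.0609), so for this gene the call depended on the setting. In limma's F test between title numbers, all 4 members were called (adjusted p from 0.00195 for RT1-Bb to 0.0110 for Cd74), as were 57.5% of all genes tested. With the trend and reads removed, RT1-Bb alone of the 4 passed limma's test (adjusted p = 0.0169), while the adjusted p was 0.0831 for RT1-Da, 0.0734 for Cd74 and 0.196 for RT1-Ba, and 31.1% of all genes were called.

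In plain values the resemblance was modest. Samples with the same number differed by a median of 0.16 log2 units in RT1-Da, against 0.21 for any pair of samples and 0.20 for neighbours in the title order. For RT1-Bb these medians were 0.23, 0.28 and 0.27. Both samples lay on the same side of the mean in 72 pairs for RT1-Da (68.6%), 68 for RT1-Bb (64.8%), 65 for RT1-Ba (61.9%) and 62 for Cd74 (59.05%). Title numbers on 3 samples show the variety. Number 61638 had RT1-Da at 44.5, 45.03 and 45.5 FPKM, nearly equal, whereas number 60444 had 47.7, 64.4 and 70.8 FPKM. Depth also varied within number 60444, with 4139407, 3201606 and 2139163 reads in the same order, the last being the fewest of all samples. For number 61638 the reads were 4745318, 5661290 and 5070789. The part of depth in these examples was not tested. For number 63032, RT1-Da was again tight at 46.8, 47.8 and 48.6 FPKM, while RT1-Bb ran from 19.03 through 26.7 to 30.2 FPKM.

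**Figure D4:**
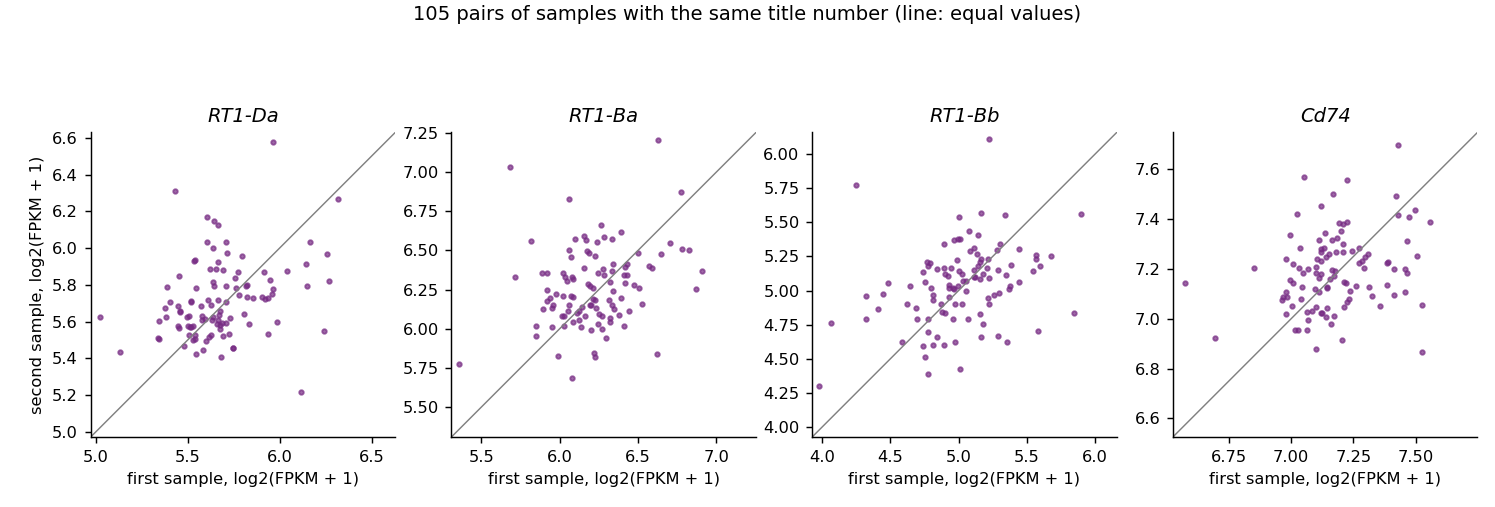
Each pair of samples with a shared title number as 1 point, with the first sample on the horizontal and the second on the vertical axis, both as log2(FPKM + 1), for each gene; the grey line marks equal values. The points scatter widely around the line, with a resemblance from 0.245 (RT1-Ba) to 0.307 (RT1-Bb).

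Relative to Cd74, resemblance was 0.393 for RT1-Da (adjusted p = 0.00042), 0.293 for RT1-Bb (adjusted p = 0.00331) and 0.239 for RT1-Ba (adjusted p = 0.00665), by the same permutation tests. For RT1-Da minus RT1-Bb it was 0.408, given without a test. Among the pairs, 5 had both samples in the low RT1-Bb band, 21 had 1 sample in it and 79 had none. Shuffling title numbers only among 20 neighbouring samples left the shuffled mean of RT1-Da relative to Cd74 at 0.141 and of RT1-Ba relative to Cd74 at 0.145, so neighbours with different numbers also resembled each other in both values. Against these shuffles the permutation p was 0.00769 for RT1-Da relative to Cd74 and 0.143 for RT1-Ba relative to Cd74. For the 4 genes themselves it ranged from 0.00075 (RT1-Bb) to 0.0263 (RT1-Ba).

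Within blocks the resemblance was uneven, and its difference between blocks was not tested. In block 2, with 49 pairs, it was 0.450 for RT1-Da (permutation p = 0.00082), 0.406 for RT1-Ba (p = 0.00223), 0.307 for RT1-Bb (p = 0.0138) and 0.332 for Cd74 (p = 0.00908). In block 3, with 47 pairs, RT1-Bb kept a value of 0.321 (permutation p = 0.0116), while the test was not passed by RT1-Da at 0.114 (p = 0.203), RT1-Ba at 0.0361 (p = 0.382) or Cd74 at 0.220 (p = 0.0600). Block 1 had 9 pairs, with values from 0.170 to 0.308 and no permutation p under 0.160. RT1-Da relative to Cd74 had 0.411 in block 2 (permutation p = 0.0021) and 0.335 in block 3 (p = 0.00869). RT1-Bb relative to Cd74 had 0.223 in block 2 (permutation p = 0.0551) and 0.369 in block 3 (p = 0.0057).

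Levels moved with sequencing depth in all 4 genes, although for Cd74 the direction depended on the scaling. The deposited scaling divides by the size factor and not by total reads. Slopes after scaling by total reads were not tested. In the deposited scaling FPKM fell as the reads per sample rose, by 0.49 log2 units per doubling of depth for RT1-Da (SE 0.06, limma adjusted p = 4.44e-16), 0.47 for RT1-Ba (SE 0.06, adjusted p = 4.75e-12), 0.43 for Cd74 (SE 0.04, adjusted p = 6.26e-23) and 0.31 for RT1-Bb (SE 0.08, adjusted p = 4.39e-04). The share of all genes tested that fell with depth was 28.3%, and 70% changed in either direction. Within blocks 1, 2 and 3 the slope was -0.49, -0.47 and -0.49 for RT1-Da, -0.41, -0.43 and -0.48 for RT1-Ba, and -0.37, -0.33 and -0.76 for Cd74, each of which passed limma's test. RT1-Bb had -0.22, -0.29 and -0.34 and passed it in block 2 (adjusted p = 0.0112), but not in block 1 (adjusted p = 0.439) or block 3 (adjusted p = 0.122). Of all genes tested, 43.7%, 62.6% and 28.9% were called in blocks 1, 2 and 3, in either direction. Without the 12 shallow samples the slopes were -0.43 for RT1-Da, -0.42 for RT1-Ba, -0.29 for RT1-Bb and -0.64 for Cd74. All of them were called, as were 57.4% of all genes tested, in either direction. Cd74 was densely covered, with a median of 0.661 reads per bp of its 1391 bp, against 0.339 for RT1-Ba, 0.229 for RT1-Da and 0.145 for RT1-Bb. The highest sample had 0.992 reads per bp for Cd74, 0.700 for RT1-Ba, 0.450 for RT1-Da and 0.324 for RT1-Bb. Whether this coverage bears on the level and spread of Cd74, or on values relative to it, was not tested. After quantile normalization the slope of Cd74 was 0.22 (limma adjusted p = 1.45e-06), that of RT1-Ba was -0.09 and no longer passed the test (adjusted p = 0.244), and those of RT1-Da and RT1-Bb were both -0.26. The part of depth in the other results was not tested beyond the values given.

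**Figure D5:**
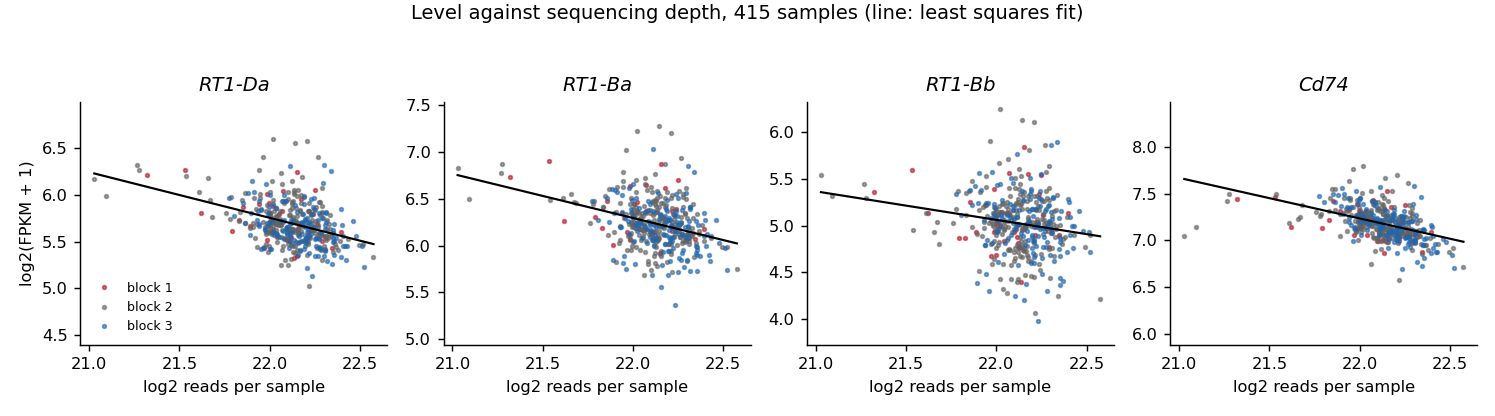
log2(FPKM + 1) of each gene against log2 reads per sample, with 1 point per sample, coloured by block, and a least squares line over all samples. In this scaling the lines fall in all 4 panels, by 0.49, 0.47, 0.31 and 0.43 per unit from left to right; after quantile normalization the Cd74 slope was 0.22.

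Along the title numbers, RT1-Ba and RT1-Da drifted downward by small amounts. RT1-Ba fell by 0.23 log2 units from the lowest to the highest number (SE 0.04, limma adjusted p = 9.32e-07), with means of 79.3 ± 14.4, 77.4 ± 15.7 and 72.3 ± 13.5 FPKM (SD) in blocks 1, 2 and 3. RT1-Da fell by 0.16 (SE 0.04, adjusted p = 0.000196), with block means of 52.9 ± 9.29, 52.3 ± 9.76 and 49.9 ± 8.18 FPKM. The change was -0.11 for RT1-Bb (SE 0.05, adjusted p = 0.0621) and -0.05 for Cd74 (SE 0.03, adjusted p = 0.121), neither of which passed the test. A fall was called for 30.2% of all genes tested and a change in either direction for 61.3%, beside 2 of 4 members. Without the 12 shallow samples RT1-Ba fell by 0.18 (limma adjusted p = 0.000159) and RT1-Da by 0.10 (adjusted p = 0.0188). With log2 reads as a covariate, RT1-Ba fell by 0.15 (adjusted p = 0.00134) and the RT1-Da estimate was -0.07 (adjusted p = 0.0947). Slopes within a block are also per full rank range of all title numbers, not per range of the block. On a scale of 0 to 1, block 2 covers ranks 0.094 to 0.653. Within block 2 the slopes were -0.35 for RT1-Ba (adjusted p = 0.00257) and -0.25 for RT1-Da (adjusted p = 0.0182). Within blocks 1 and 3 neither gene was called. There limma called 0% and 6.53% of all genes tested, against 56.6% in block 2. The slopes did not differ detectably between blocks for any member (limma interaction, adjusted p from 0.119 for Cd74 to 0.958 for RT1-Ba), where 27.7% of genes were called. Block differences as such were called for RT1-Ba (adjusted p = 0.00213) and, at the margin, RT1-Da (adjusted p = 0.0489), against 53% of all genes tested. The RT1-Da call was lost under 6 of 9 alternatives.

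The title suffix made no detectable difference. Between samples with suffix 4 and suffix 3, the largest absolute difference among the members was 0.01 log2 units (SE 0.03 for RT1-Bb), and limma called 0% of genes, with 2.26% at an unadjusted p under 0.05, while voom on the recovered reads called 0, with 2.002% at an unadjusted p under 0.05.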

How the data were processed

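Each sample has 1 column of FPKM, deposited by the authors in a table of the whole series. STAR, Picard, featureCounts and DESeq2 are named in the submitters' processing notes, per the labels reads were single-end of 75 bp, and the genome build and annotation are not given in the sources used here. Whole reads were recovered from the FPKM (100% of values whole within 0.001) and gave depth per sample. Values were analysed as log2(FPKM + 1) over genes with FPKM above 1 in at least 20% of samples. limma 3.58.1 (R 4.3.3) was fitted across all 16131 genes kept, with Benjamini-Hochberg adjustment and a threshold of 0.05. On simulated data, 200 of 200 changed genes were found in each of 5 tests (100%): trend, blocks, reads, suffix and title numbers, with 4 to 14 unchanged genes called. Changes were planted at a single set strength per test in independent normal noise, so how often weaker changes are found was not measured. The test of the trend's difference between blocks was not simulated. Mixtures were fitted with scikit-learn 1.9.0, and another component was accepted where BIC improved by more than 10. Permutation tests used 100000 resamples. Correlation tests were two-sided and resemblance tests one-sided. For similar genes, the rule was to name those with the highest and lowest r with each member, and at most 2 identifiers in each direction are given. Nothing in the labels says that samples came from separate animals, so p-values measure the spread between these samples. The members, lists and tests were chosen with earlier results of these data known. Alternatives were another filter, pseudocount 0.1, quantile normalization, voom on recovered reads, array weights, 1 sample per title number, leaving out shallow samples, covariates and single blocks.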

Additional observations from a re-analysis of the deposited data

How the results depend on the processing

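The samples form 1 group, so no groups could be paired. Some title numbers carry both suffixes, and with the title number as a random block the suffix difference was 0.0081 for RT1-Da, 0.0040 for RT1-Ba, 0.012 for RT1-Bb and -0.0060 for Cd74, none called by limma. The mean levels, the SDs and all 6 correlations held under every alternative tried for them. The number of components was 2 for RT1-Ba without shallow samples and after quantile normalization, 2 for Cd74 and 3 for RT1-Bb relative to Cd74 after quantile normalization, and 1 for RT1-Da relative to Cd74 with 1 sample per title number or without shallow samples. Gaps above 3 SDs became 1 for RT1-Da and RT1-Ba without shallow samples and after quantile normalization, 1 for Cd74 after quantile normalization, 0 for RT1-Da relative to Cd74 with components of their own variances, with 1 sample per title number or without shallow samples, 1 for RT1-Bb relative to Cd74 with own variances or without shallow samples, and 2 for it after quantile normalization. For RT1-Da relative to RT1-Bb, block 1 alone gave 1 component, an upper component of 0 samples and a separation of 0, and blocks 2 and 3 gave upper components of 33 and 22 samples, since fewer samples entered; other settings gave 43 to 65 samples and 4.11 to 5.01 SDs.

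Same-number resemblance no longer passed its permutation test in block 1 for RT1-Da (0.214), RT1-Ba (0.308), RT1-Bb (0.170), Cd74 (0.238), and relative to Cd74 for RT1-Da (0.184), RT1-Ba (0.221) and RT1-Bb (0.0468). In block 3 it did not for RT1-Da (0.114), RT1-Ba (0.0361) and Cd74 (0.220), and RT1-Ba relative to Cd74 turned to -0.0752. In block 2 it did not for RT1-Bb relative to Cd74 (0.223). RT1-Ba had 0.149 after quantile normalization and 0.0942 after removal of a spline of the title rank and log2 reads. RT1-Ba relative to Cd74 had 0.0418 after removal of the title spline, 0.0534 with reads removed too, and 0.239 with a permutation p of 0.143 under shuffling within windows. In limma's test between title numbers, adjusted p was 0.0831 for RT1-Da, 0.196 for RT1-Ba and 0.0734 for Cd74 after removal of the spline and reads, and 0.0646 for RT1-Ba after quantile normalization.

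The trend along title numbers was -0.074 for RT1-Da with log2 reads as a covariate, -0.84 in block 1 and -0.46 in block 3, and -0.22 and -0.43 for RT1-Ba in blocks 1 and 3, none called by limma. Cd74 turned to 0.051 after quantile normalization, 0.029 with log2 reads and 0.0042 in block 2. These trends within blocks are per full rank range of all title numbers. In blocks 1 and 3 limma called a trend for only 0% and 6.53% of all genes tested. For the block difference of RT1-Da, limma's adjusted p was 0.0530 without a filter, 0.276 after quantile normalization, 0.0578 with voom, 0.151 with array weights, 0.0815 with 1 sample per title number and 0.201 without shallow samples; for RT1-Ba it was 0.0575 after quantile normalization. The slope on log2 reads was -0.090 for RT1-Ba and 0.22 for Cd74 after quantile normalization, and -0.22 and -0.34 for RT1-Bb in blocks 1 and 3. The suffix difference, near 0 throughout, changed sign for RT1-Da in block 3 (-1.0e-04), for RT1-Ba after quantile normalization (0.0090), with voom (0.00041), array weights (0.0033), without shallow samples (0.0043), with that block, with covariates (0.011) and in blocks 1 (0.056) and 3 (0.0059), for RT1-Bb with 1 sample per title number (-0.012) and in block 2 (-0.0056), and for Cd74 after quantile normalization (0.019) and with covariates (0.013). The cause was not tested for any of these changes.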
